A study of Mus musculus with 9 samples.

Results

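The genes described here are 35 genes of cardiac excitation, calcium handling and cell coupling: ryanodine and inositol trisphosphate receptors, voltage-gated calcium channels and their subunits, calcium pumps with their inhibitors, calsequestrins, the sodium-calcium exchanger, pacemaker and potassium channels, and connexins. The genes were fixed by name, and a region counted for a gene where the deposited list of accessible regions paired the region with that gene's symbol. Of 17164 distinct regions in the list, which paired them with 11541 genes, 49 regions were assigned to 20 of the 35 genes, and 15 genes had none.

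The list came from ATAC-Seq, in which a transposase cuts and tags accessible DNA, on pharyngeal mesoderm and hearts dissected from mouse embryos at E8.75. It joins the 3 wild-type control libraries (genotype wt), with no knockout or Cre allele, and it keeps the regions common to these libraries. The 3 libraries labelled Isl1-/- and the 3 labelled Isl1Cre+/-/ Brg1fl/fl, in which Brg1 can be lost only where Isl1-Cre is active, were not analysed here. The list holds no height, score or per-library value, so its depth is unknown, no value below has a replicate error, and a gene without a region is a gene without a region in this list, not a closed gene. Tissue of several cell types was dissected, so a region open in a few cells and a weakly open region cannot be told apart.

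In heart muscle, depolarization opens voltage-gated calcium channels, and the entering calcium opens ryanodine receptors, which release stored calcium for contraction. Calcium pumps return it to the store and the sodium-calcium exchanger removes it from the cell, while pacemaker and potassium channels set rhythm and repolarization, and connexins form the gap junctions through which the impulse spreads. Several of these proteins have forms preferred by heart or by skeletal muscle, which are encoded by separate genes.

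Sequences of 3 kinds show the DNA on which the results below turn, all on mm9. The first set holds the 250 bases before a RefSeq start, in the direction of transcription, for the calcium channel genes Cacna1c and Cacna1d and for the pump inhibitor Pln, with each CpG in capitals. These 3 were chosen after the values were seen. The Cacna1c and Cacna1d sequences hold 48 and 50 CpG, and a region overlapped that of Cacna1c only. It overlapped only the end farthest from the start, from position 119058699 on, and did not cover the start. The Pln sequence holds 1 CpG.
Cacna1c (chr6:119058514-119058763, minus strand): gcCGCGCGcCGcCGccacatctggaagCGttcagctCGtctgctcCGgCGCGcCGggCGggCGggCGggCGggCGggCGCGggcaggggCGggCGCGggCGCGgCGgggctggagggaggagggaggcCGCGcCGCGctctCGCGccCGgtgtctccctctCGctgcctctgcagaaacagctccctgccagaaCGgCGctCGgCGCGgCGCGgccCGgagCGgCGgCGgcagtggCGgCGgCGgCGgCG
Cacna1d (chr14:31166673-31166922, minus strand): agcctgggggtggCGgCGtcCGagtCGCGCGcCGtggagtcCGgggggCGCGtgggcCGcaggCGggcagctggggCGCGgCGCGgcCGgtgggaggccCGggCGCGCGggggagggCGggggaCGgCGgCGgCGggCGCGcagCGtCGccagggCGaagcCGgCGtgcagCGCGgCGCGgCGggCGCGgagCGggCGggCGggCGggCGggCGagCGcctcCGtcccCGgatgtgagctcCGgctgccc
Pln (chr10:53057242-53057491, plus strand): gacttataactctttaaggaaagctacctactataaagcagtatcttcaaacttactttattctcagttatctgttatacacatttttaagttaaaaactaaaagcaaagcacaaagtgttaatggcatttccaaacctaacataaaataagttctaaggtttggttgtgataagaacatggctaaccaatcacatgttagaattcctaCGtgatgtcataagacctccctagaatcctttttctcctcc

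The next set holds the central 300 bases, on the plus strand, of 3 intronic regions that held several motifs of a fixed list, with the motif letters of either strand in capitals. The Itpr1 window holds letters of the GATA, NK2, T-box and TEAD types, the Kcnd3 window those of the NK2 and TEAD types, a GC box and a CArG box, and the Cacnb2 window those of the GATA, NK2 and MEF2 types. The windows of Itpr1 and Kcnd3 held the most types, 4 each. That of Cacnb2 was chosen after its letters were seen, among 4 intronic regions with 3 types each, the others being another of Cacnb2 and 1 each of Slc8a1 and Cacna1c.
Itpr1 intron (chr6:108198986-108199285): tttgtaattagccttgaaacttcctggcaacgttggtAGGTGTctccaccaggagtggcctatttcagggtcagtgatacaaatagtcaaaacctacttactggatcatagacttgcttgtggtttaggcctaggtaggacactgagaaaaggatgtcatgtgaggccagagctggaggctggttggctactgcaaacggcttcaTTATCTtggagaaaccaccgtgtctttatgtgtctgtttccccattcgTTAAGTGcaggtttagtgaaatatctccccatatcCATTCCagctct
Kcnd3 intron (chr3:105332778-105333077): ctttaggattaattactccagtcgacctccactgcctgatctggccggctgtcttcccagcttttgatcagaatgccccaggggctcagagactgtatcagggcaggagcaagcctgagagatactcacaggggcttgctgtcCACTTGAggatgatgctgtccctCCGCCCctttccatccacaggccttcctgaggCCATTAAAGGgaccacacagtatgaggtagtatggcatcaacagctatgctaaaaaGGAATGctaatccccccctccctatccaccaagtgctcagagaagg
Cacnb2 intron (chr2:14729499-14729798): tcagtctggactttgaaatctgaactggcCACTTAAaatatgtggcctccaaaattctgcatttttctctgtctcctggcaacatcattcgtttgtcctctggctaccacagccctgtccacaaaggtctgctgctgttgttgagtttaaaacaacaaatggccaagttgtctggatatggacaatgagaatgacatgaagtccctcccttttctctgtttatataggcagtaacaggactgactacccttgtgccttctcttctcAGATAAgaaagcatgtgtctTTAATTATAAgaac

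The last is the center of the 630-bp region just before an internal start of Cacnb2, which holds 0 CpG and an NK2-type match in capitals. It is shown because regions so close to a start were rarely this poor in CpG.
Cacnb2 internal start (chr2:14744831-14745130, plus strand): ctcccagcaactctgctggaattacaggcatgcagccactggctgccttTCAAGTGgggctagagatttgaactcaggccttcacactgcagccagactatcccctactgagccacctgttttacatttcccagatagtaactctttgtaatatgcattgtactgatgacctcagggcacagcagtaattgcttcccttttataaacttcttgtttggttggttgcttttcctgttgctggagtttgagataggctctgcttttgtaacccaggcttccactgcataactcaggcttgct

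To ask how often these genes lay near accessible chromatin, their share was set beside that of all coding genes. A region was assigned to 20 of 35 genes (57.1%, 95% Wilson interval 40.9 to 72%, which covers counting error only), compared with 49.3% of 21027 coding genes. A region within 1 kb of the assigned start was present at 13 genes (37.1%, interval 23.2 to 53.7%), compared with 40.6% of coding genes. Both background shares lay within the intervals. The genes differed more in where their regions lay. At least 3 regions were assigned to 7 genes (20%, interval 10 to 35.9%), compared with 4.96% of coding genes, namely Cacnb2 and Kcnj2 with 7 each, Slc8a1 with 5, Gja1 with 4, and Cacna2d1, Itpr2 and Kcnj3 with 3 each. Regions but none within 1 kb were assigned to 7 genes (20%, interval 10 to 35.9%), compared with 8.66% of coding genes: Atp2a3, Casq2, Slc8a1, Kcnq1, Kcnd2, Kcnd3 and Gja1. Slc8a1 and Gja1 are in both sets, which together hold 12 genes.

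Gene length moved with these counts. The median length was 242631 bp for the 20 genes with a region and 20122 bp for the 15 without. Of the 15 genes of at least 100 kb, 12 had a region, compared with 73.0% of all coding genes of that length, and 5 had 3 or more, compared with 18.3%. Of the 9 genes shorter than 20 kb, 2 had a region (30.2% of all such genes), and these 2, Kcnj2 and Gja1, had all but 1 of their 11 regions beyond the annotated gene. Of the 11 genes between these lengths, 6 had a region (55.9%). The part of gene length in the counts was not tested further.

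**Figure D1:**
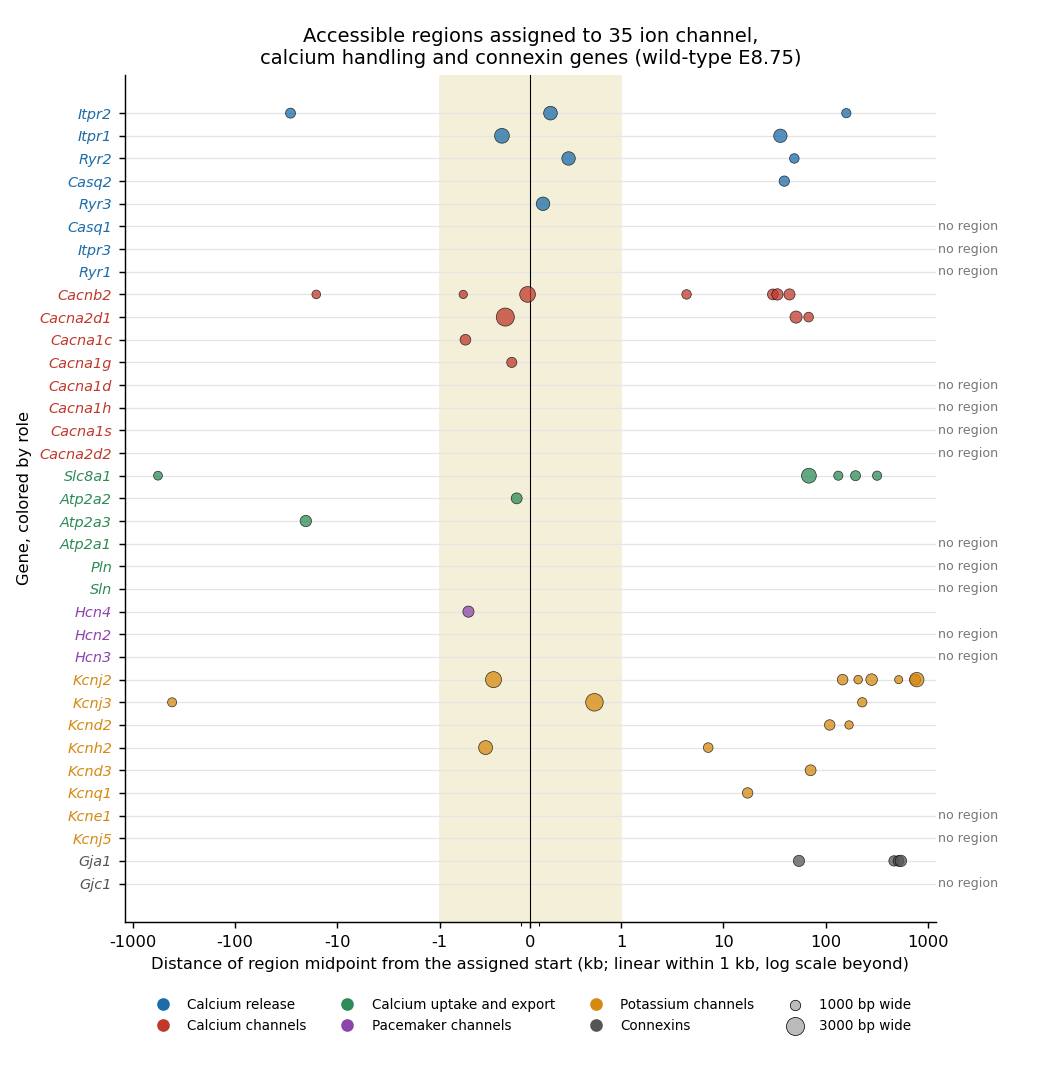
Each circle is 1 of the 49 regions, placed by the signed distance of its midpoint from the assigned start (kb, linear within 1 kb and log beyond, downstream to the right) in the row of its gene, with area by width and color by role. The shaded band marks 1 kb on either side of the start, which holds 14 regions, and most other circles lie to the right of it.

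Of the 49 regions, 35 (71.4%, interval 57.6 to 82.2%) lay beyond 1 kb of the assigned start, compared with 47.1% of all regions. Of these 35, 30 lay downstream of the start (85.7%, interval 70.6 to 93.7%), compared with 54.5% of the 8081 regions beyond 1 kb in the list. Midpoints were placed first by an annotated transcript start within 1 kb, then by exon and then by intron. In this order, 15 lay at a start (30.6%, compared with 56% of all regions), 0 in an exon away from a start, 19 in an intron away from a start (38.8% and 15.6%), and 15 between genes (30.6% and 26.7%). Introns of any gene were counted, and among the 19 the Kcnj3 region 413302 bp upstream lay outside Kcnj3, in an intron of another gene. Of the 15 at a start, the midpoint lay in an exon of the gene for 3 (Ryr2, Ryr3 and Itpr2), in an intron for 4 (Cacnb2, Casq2, Kcnh2 and Kcnj3) and upstream of the gene for 8. The regions of 1 gene share its locus and are not independent, and Kcnj2, Cacnb2 and Slc8a1 alone held 19 of the 49. The genes with a region had a median length of 242631 bp, compared with 15188 bp for all coding genes. The part of gene length in the downstream and intronic shares was not tested.

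Among the calcium release genes, 5 of 8 had a region and 4 had one within 1 kb. Ryr2, the ryanodine receptor of heart muscle, had a 1677-bp region over its start (chr13:12197954-12199630) and an 846-bp region in intron 1, 49344 bp downstream. Ryr3, a form of wider expression, had a 1672-bp region over 2 of its 3 annotated coding starts (chr2:113056266-113057937). The inositol trisphosphate receptors release calcium after hormone and growth factor signals, and Itpr1 and Itpr2 held 5 of the 9 regions in this group. Itpr1 had a 2010-bp region at its start (chr6:108161773-108163782), wider than 90.4% of all regions within 1 kb, and a second of 1651 bp in intron 4 (chr6:108198310-108199960), wider than 94.9% of regions at 10 to 100 kb. This second region is the source of the window with 4 motif types printed above. Itpr2 had a 1728-bp region covering 4 of its 5 coding starts (chr6:146449661-146451388), a 796-bp region in intron 25 and a 922-bp region 28698 bp upstream. Casq2, the calsequestrin that binds calcium inside the store of heart muscle, had a single region of 984 bp in intron 5 (chr3:101929264-101930247), 39377 bp downstream of its start and near the start of another annotated transcript.

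Among the voltage-gated calcium channel genes, 4 of 8 had a region, and all 4 had one within 1 kb. Cacna1c, the pore-forming subunit of the L-type channel of heart muscle, had 1 region of 1060 bp (chr6:119058699-119059758). RefSeq gives this gene 3 promoters in the table used here, with 3, 57 and 7 CpG in 300 bases. Only that with 57 was overlapped by a region, which did not reach its start. That start is not a coding start in GENCODE, where the region's midpoint lies in intron 1, 87021 bp from the nearest coding start. Cacna1g, a T-type channel, had 1 region of 950 bp over 2 of its 3 coding starts (chr11:94335243-94336192). Cacna2d1, an auxiliary subunit that brings the channel to the membrane, had the widest region of all 49, at 3008 bp over all 3 of its coding starts (chr5:15438730-15441737), wider than 99.1% of regions within 1 kb. It also had 1360-bp and 869-bp regions in intron 1, at 51311 and 68053 bp.

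Cacnb2, the cytoplasmic beta subunit of the cardiac L-type channel, had 7 regions that together covered 7856 bp. A 2291-bp region covered its first 2 coding starts (chr2:14524757-14527047), with 57.3% GC and 5.37 CpG per 100 bp. The internal start 219.786 kb further along had a 630-bp region ending before it (chr2:14744666-14745295), with 43.7% GC and 0.16 CpG per 100 bp. At these 2 starts of 1 gene the regions thus differed from the median of all regions within 1 kb (1294 bp, 5.93 CpG per 100 bp) in opposite directions for width. Only 0.5% of regions within 1 kb were narrower than that at the internal start. The other 5 lay in introns, 1 in intron 1, 1 in intron 2 and 3 in intron 3, with widths of 693 to 1185 bp. The 3 in intron 3 lay within 15 kb, at 30450, 33697 and 44250 bp from the start assigned to them, and the gap between the first and the next was 2111 bp. A GATA match and an NK2 match occurred together in 3 of the 5 intronic regions, including 2 of the 3 in intron 3.

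Among the genes of calcium uptake and export, 3 of 6 had a region and 1 had one within 1 kb. Atp2a2, the calcium pump of the cardiac store, had a 1099-bp region over its start (chr5:122951836-122952934) with 75.2% GC and 14.01 CpG per 100 bp, higher in CpG than 99.9% of regions within 1 kb. Atp2a3, a pump of non-muscle cells, had 1 region of 1198 bp, 20334 bp upstream, and none at its start. Slc8a1, the sodium-calcium exchanger of the heart, had 5 regions and none at a start. The widest, 2034 bp (chr17:82068182-82070215), was wider than 97.7% and richer in CpG than 95.1% of regions at 10 to 100 kb, at 5.41 per 100 bp. It lay 68529 bp downstream of the RefSeq start to which it was assigned and 20251 bp upstream of the nearest GENCODE coding start. Of the other 4, 3 lay in introns of the gene and 1 of 727 bp lay far upstream, at -568144 bp. Pln and Sln, which encode the small inhibitors of the pump, had no region, and neither did Atp2a1.

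Of the pacemaker channel genes, which carry the current that brings the cell back to threshold, only Hcn4 had a region, of 1149 bp (chr9:58670063-58671211) with 71.6% GC and 11.31 CpG per 100 bp. Its midpoint lay 682 bp upstream of the GENCODE coding start, which it did not cover, and it covered the RefSeq start at position 58670756. Hcn2 and Hcn3 had none.

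Among the potassium channel genes, 6 of 8 had a region and 3 had one within 1 kb. Kcnj2, an inward rectifier that holds the resting potential, had a 2363-bp region over its start (chr11:110925891-110928253), wider than 95.7% of regions within 1 kb. Its other 6 regions all lay downstream and between genes, at 146374, 207813, 281539, 517659, 753405 and 777971 bp. The next coding gene on that side, Gm11678, starts 1365878 bp from the region at the Kcnj2 start, and it is the nearest coding start to the last 2. The farthest of the 6, at 1930 bp (chr11:111704485-111706414), was wider than 98.2% of all regions beyond 100 kb. Kcnj3, a subunit of the acetylcholine-gated channel of the atrium, had a 2843-bp region over all 3 of its coding starts (chr2:55287665-55290507), wider than 98.6% of regions within 1 kb, and regions 413302 bp upstream and 227844 bp downstream. Kcnj5, which encodes its partner subunit, had none, and the region nearest to its start lay 247701 bp away, the longest such distance among the 35 genes.

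Kcnh2, the channel of the rapid delayed rectifier current, had a 1790-bp region at its upstream coding start (chr5:23857021-23858810) and an 864-bp region in intron 11. Its internal RefSeq promoter, with 19 CpG in 300 bases, was not overlapped by a region. Kcnd2 and Kcnd3, which carry the transient outward current, had regions in introns only. Those of Kcnd2 were 1012 and 655 bp wide in intron 1, at 109434 and 169245 bp, and that of Kcnd3 was 1090 bp wide in intron 2, at 71193 bp. Kcnq1, the channel of the slow delayed rectifier current, had 1 region of 1006 bp in intron 1 (chr7:150309886-150310891), and Kcne1, its regulatory subunit, had none. A second region inside Kcnq1 carried the symbol of Kcnq1ot1, the imprinted noncoding RNA transcribed from within the gene (chr7:150482007-150483227).

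Gja1, the main gap junction protein of working heart muscle, had 4 regions and none near its start. They lay downstream and between genes at 54767, 466230, 516127 and 544018 bp, with widths of 1002 to 1209 bp, and the last 3 lay nearer to the start of Gm9956 than to that of Gja1. Gjc1, a connexin of the early heart and the conduction system, had none, although its start held 15.08 CpG per 100 bp.

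**Figure D2:**
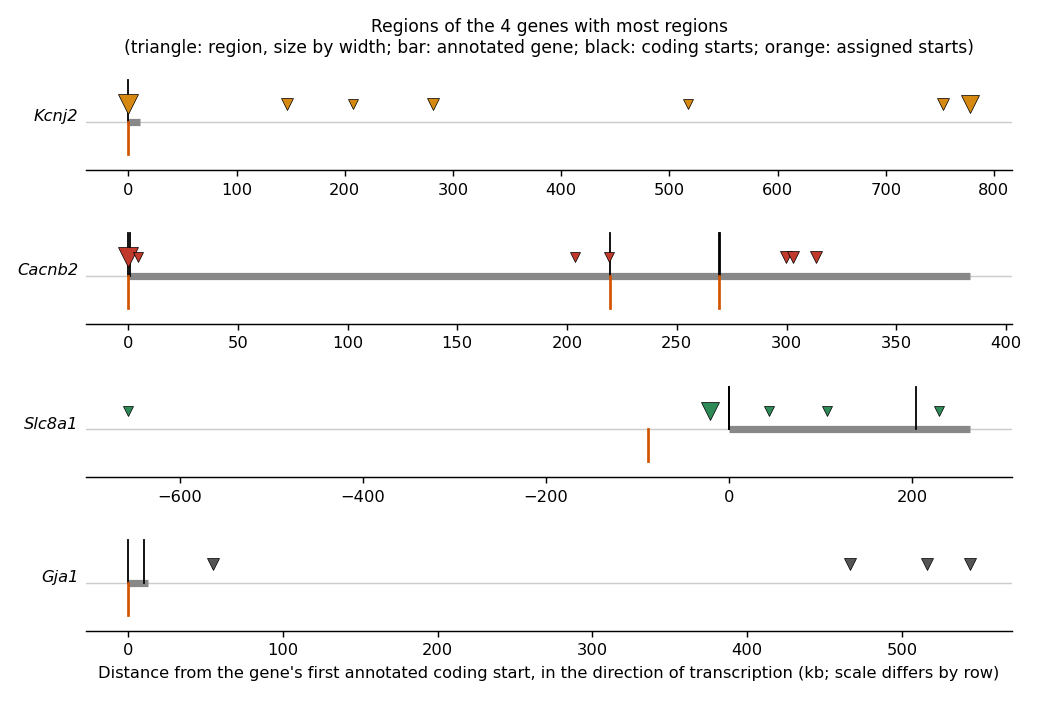
Triangles mark the regions of Kcnj2, Cacnb2, Slc8a1 and Gja1, sized by width, along the distance from the first annotated coding start (kb, in the direction of transcription, with a separate scale per row). The gray bar is the annotated gene, black lines are coding starts and orange lines are the starts to which regions were assigned. The regions of Cacnb2 lie inside the gene except for that at its first start, which reaches from before the gene into it, those of Kcnj2 and Gja1 mostly lie past its end, and the widest of Slc8a1 lies between its assigned start and its first coding start.

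The nearest coding start belonged to another gene for 10 of the 49 regions, so their link to these genes rests on the deposited assignment. They were 3 regions of Gja1, 2 each of Cacna2d1 and Kcnj2, and 1 each of Cacna1c, Slc8a1 and Itpr2. The reverse also occurred, since 5 regions inside 5 of the genes carried another symbol. Among them, a region within Cacna1c was assigned to Dcp1b (chr6:119124835-119125953) and a region within Cacna1d to Dcp1a (chr14:31292276-31293262), at the starts of those genes. The remaining 3 lay in Cacnb2 (Gm13315), Itpr2 (Sspn) and Kcnq1 (Kcnq1ot1).

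Width was compared within distance classes, since regions at starts were wider. For the 14 regions within 1 kb, the median was 1702.5 bp, with quartiles of 1111.5 and 2220.8 bp, compared with 1294 bp and quartiles of 1084 and 1612.5 bp for all 9083 such regions. Of the 14, 5 were at least 2 kb wide (35.7%, interval 16.3 to 61.2%), compared with 9.97%. These belonged to Cacna2d1, Kcnj3, Kcnj2, Cacnb2 and Itpr1. At 10 to 100 kb the median was 1090 bp over 15 regions, compared with 949.5 bp, and beyond 100 kb it was 869 bp over 18 regions, compared with 919 bp. Widths of the genes' regions thus exceeded the median of all regions in the classes within 1 kb and at 10 to 100 kb, and not beyond 100 kb. The 2 regions at 1 to 10 kb, of Cacnb2 and Kcnh2, were 834 and 864 bp wide, below the median of 1039 bp.

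**Figure D3:**
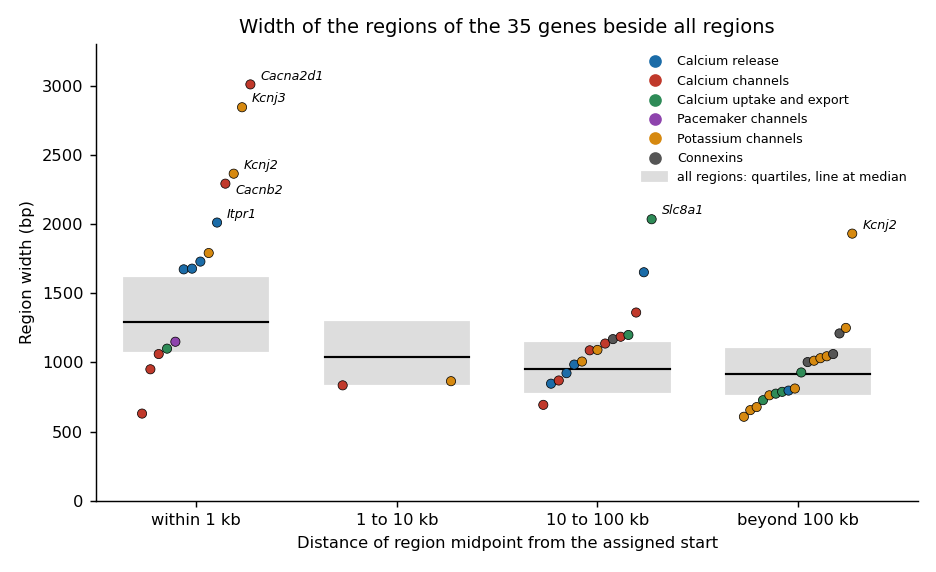
Points are the widths (bp) of the 49 regions by distance class, colored by role, and gray boxes with a line give the quartiles and median of all regions in the class. Within 1 kb, 9 of the 14 points lie above the upper quartile of all regions, led by Cacna2d1 at 3008 bp, and the lowest is the Cacnb2 region of 630 bp.

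To ask whether genes without a region lacked a CpG-rich start, CpG density was taken as the highest number per 100 bp within 500 bp of any GENCODE coding start. In all 22232 coding genes, 43.9% had a region within 1 kb of a coding start. The share was 70.8% for the 12041 genes with at least 4 CpG per 100 bp and 12.1% for the 10191 below it. Of the 35 genes, 21 had at least 4 CpG, and 10 of these had a region at a coding start (47.6%, interval 28.3 to 67.6%). Of the 14 below 4 CpG, 2 had one (14.3%, interval 4.01 to 39.9%), namely Kcnj2 and Kcnj3. Kcnj3 lay just under the cut, at 4.00 CpG per 100 bp after rounding. Cacna1c is counted among the 14, since its region lies at a CpG-rich RefSeq start that is not a GENCODE coding start. Among the 16 genes with at least 8 CpG, 7 had one (43.8%, interval 23.1 to 66.8%), compared with 74.7% of all such genes. The upper bounds for both CpG-rich sets fell short of the share in all genes, and the second set is part of the first. The bound for genes with at least 4 CpG was near that share, 67.6% and 70.8%, with Kcnj3 and Cacna1c counted below the cut. The 35 genes were chosen by function, and other properties of CpG-rich starts were not compared.

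The CpG-rich starts with a region belonged to Atp2a2, Cacna1g, Cacna2d1, Cacnb2, Hcn4, Itpr1, Itpr2, Kcnh2, Ryr2 and Ryr3. Those without one belonged to Atp2a3, Cacna1d, Cacna1h, Cacna2d2, Gjc1, Hcn2, Hcn3, Itpr3, Kcnd2, Kcnd3 and Kcnq1. Pairs of related genes fell on either side. Cacna2d1 had 13.79 CpG per 100 bp and Cacna2d2, a subunit of the same family, had 11.29, with the nearest region 59035 bp away. Hcn4 had 12.49 and Hcn2 11.39, with the nearest region 12143 bp away at Bsg. Cacna1d, an L-type channel of pacemaker and neuronal cells, had 11.69, and of its 2 RefSeq promoters neither the CpG-rich promoter, printed above, nor the other was overlapped. Counted over the RefSeq promoters of 25 of the genes, all of which were found in mm9, 12 held at least 20 CpG in 300 bases, and 5 of these were overlapped by a region. Of the 5 with 10 to 19 CpG, 3 were overlapped (Kcnj3, Kcnj2 and Ryr2), and of the 12 with fewer than 10 CpG, 0 were. In all, 8 of 29 promoters were overlapped, and the same count over the promoters of all genes was not made.

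**Figure D4:**
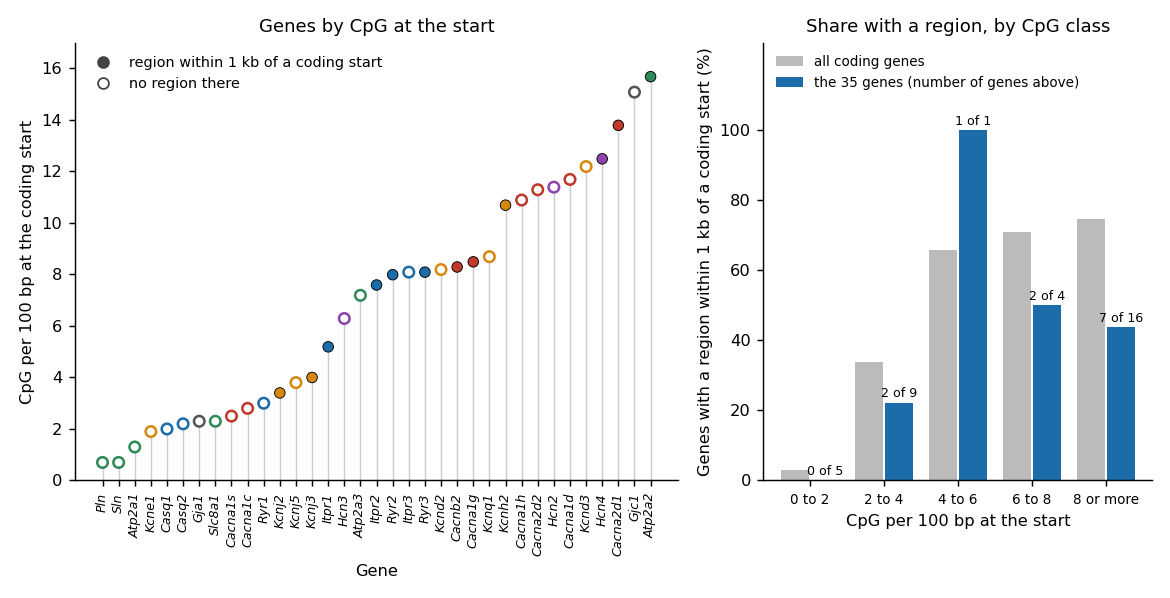
Left, CpG per 100 bp at the coding start of each of the 35 genes in rising order, filled where a region lay within 1 kb of a coding start and open where none did, colored by role as in the plot of distances. Right, the share of genes with such a region (%) by CpG class for all coding genes (gray) and the 35 genes (blue, with numbers), where 7 of 16 genes in the highest class had one. Cacna1c is drawn open for the reason given above.

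The heart and skeletal muscle forms were then set side by side. In all 4 pairs the heart form had a region and the skeletal form had none: Ryr2 and Ryr1, Casq2 and Casq1, Atp2a2 and Atp2a1, and Cacna1c and Cacna1s. The heart form was also the longer gene in each pair. Ryr2 and Ryr1 spanned 553843 and 121812 bp, and Casq2 and Casq1 60100 and 10002 bp. Atp2a2 and Atp2a1 spanned 48653 and 17251 bp, and Cacna1c and Cacna1s 603936 and 67073 bp. In all coding genes the share with a region rose with length (30.2%, 55.9% and 73.0% in the classes above). The part of gene length in this pattern was not tested. The heart form had its region within 1 kb of the assigned start in 3 of the 4, Casq2 being the exception. For Cacna1c the assigned start is the RefSeq start, and no region lay within 1 kb of a GENCODE coding start. CpG density moved with these pairs in part. It was 7.99 per 100 bp at the Ryr2 start and 3.0 at that of Ryr1, and 15.68 at that of Atp2a2 and 1.3 at that of Atp2a1. It was closer for Casq2 and Casq1 (2.2 and 2.0) and, by GENCODE coding starts, for Cacna1c and Cacna1s (2.8 and 2.5). The Cacna1c region lay at none of these coding starts. The RefSeq promoter it overlapped held 57 CpG in 300 bases, and that of Cacna1s held 9. Cacna1s was near the edge, since a 1307-bp region assigned to Ascl5 (chr1:137947411-137948717) had its midpoint 1263 bp upstream of a Cacna1s start. With each region given anew to the nearest coding start, Cacna1s and Pln gained a region and Cacna1c lost its region. The pair of Cacna1c and Cacna1s then turned around. With only regions at least as wide as the overall median, Atp2a2, Cacna1c and Casq2 had none, and the pattern held in 1 of the 4 pairs, that of Ryr2 and Ryr1.

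For the 15 genes without a region, the nearest region of any gene lay between 1263 bp (Cacna1s) and 247701 bp (Kcnj5) from a coding start. It lay within 100 kb for 13 of them. At Hcn3 it was 4690 bp away at Clk2, at Cacna1d 11573 bp away at Dcp1a, inside the Cacna1d gene, and at Atp2a1 12246 bp away at Sh2b1. At Gjc1 it was 30353 bp away at Adam11, at Kcne1 40747 bp away at Rcan1 and at Pln 42010 bp away at Cep85l. At Ryr1, the skeletal muscle form of the receptor, it was 55495 bp away at Psmd8. At Casq1 and Sln it was 71354 and 78619 bp away, and at Itpr3 and Cacna1h 84218 and 106816 bp away.

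The letters of 11 motifs were counted on both strands in the central 300 bp of each region, and a match is a description of sequence, not of binding. Overlapping matches of different motifs were each counted. In the 35 regions beyond 1 kb, the GATA letters AGATAA occurred in 9 (25.7%), compared with 14.5% of the 8081 regions beyond 1 kb. TNAAGTG (NK2) occurred in 7 (20%, compared with 14.2%), GGAATG (TEAD) in 9 (25.7%, 22.2%) and TGACAG (Meis) in 9 (25.7%, 23.3%). CATCTG (Hand type) occurred in 5 (14.3%, 21.8%), AGGTGT (T-box) in 4 (11.4%, 10.8%), GGGCGG (GC box) in 5 (14.3%, 19.3%) and CTAATG (Isl1 type) in 3 (8.57%, 11.2%). MEF2 occurred in 1, of Cacnb2, CArG in 1, of Kcnd3, and RE1 in 0 (1.98%, 1.51% and 0.247% of all such regions). With 35 regions, a share moves by several points with each region, and regions of 1 gene share a locus.

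The regions with an NK2 match beyond 1 kb belonged to Cacnb2, Itpr1, Slc8a1, Kcnj3 and Kcnd3, and those with a GATA match to Cacnb2, Cacna2d1, Slc8a1, Itpr1, Itpr2, Kcnj2 and Kcnd2. The 3 regions with the Isl1-type letters were 2 intronic regions of Slc8a1 and 1 downstream region of Kcnj2. Within 1 kb, a GC box occurred in 9 of 14 regions (64.3%, compared with 69.2%), with 4 matches at Atp2a2, and the T-box letters occurred in 4 (28.6%, compared with 8.17%), at Itpr1, Itpr2, Hcn4 and Kcnj2.

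**Figure D5:**
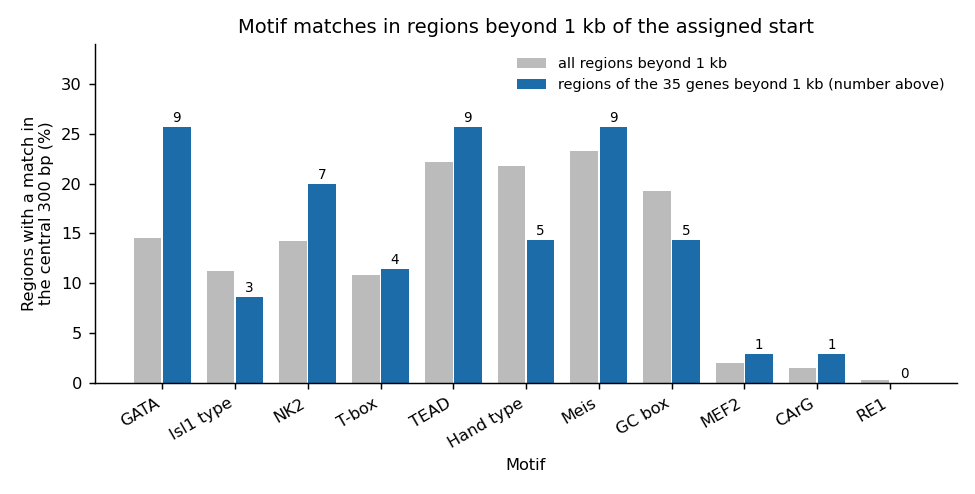
Bars give the share (%) of regions beyond 1 kb whose central 300 bp held each motif, for all regions (gray) and for the 35 regions of the genes (blue, with their number). The GATA bars differ most, at 25.7% and 14.5%, and the other bars of the genes lie on either side of those of all regions.

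Another 67 genes of cardiac channels, calcium handling and connexins were counted in the same way. Of these, 30 had a region (44.8%, interval 33.5 to 56.6%), close to the 49.3% of coding genes, and 26 had one within 1 kb (38.8%). Kcna4, a channel of the transient outward current, had 5 regions, Atp2b1, a calcium pump of the plasma membrane, had 4, and Asph, whose products include junctin of the calcium store, and Camk2d, the main cardiac calmodulin kinase, had 3 each. Regions over the 95th percentile of width in their class included those of Atp2b1 (2545 bp) and Camk2d (2311 bp) at starts, and one of Calm2 (2248 bp) beyond 1 kb. Genes without a region included Gja5, an atrial connexin, and Trdn, which anchors calsequestrin.

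The labelled tissue was compared with marker genes. Of 14 markers of pharyngeal mesoderm and heart progenitors, 8 had a region, with 9 at Isl1 and 8 at Eya1, and none was assigned to Tbx1, Fgf8, Nkx2-5, Tbx5, Gata6 or Hand1. A region was also assigned to 5 of 7 neural, 4 of 6 endothelial, 1 of 5 blood, 2 of 4 skeletal muscle and 2 of 4 liver markers. These shares are to be read beside the 49.3% of all coding genes with a region. A region does not measure expression, and the part of other cell types in the regions of the 35 genes was not tested.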

How the data were processed

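The authors sequenced 3 ATAC-Seq libraries for each of 3 genotypes (wt, Isl1-/- and Isl1Cre+/-/ Brg1fl/fl), which set the groups here, and only the wild-type list was used. Alignment by the authors was to mm9 (bowtie2). They then kept proper pairs with samtools, removed duplicates with Picard 1.136, called peaks in each library with MACS14, removed blacklisted regions and kept regions common to the replicates with bedtools 2.15 (overlap of at least 1 bp). The deposited values are positions and signed distances to a start, in bp, with no count or height, so depth and precision are unknown. The tool that assigned genes is not given in the sources used here. No column was left unassigned (0).

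Repeated rows were counted once. Places and starts came from GENCODE vM1 on the same build, promoters from RefSeq (GRCm38.p6, matched by exact sequence to mm9). Of the deposited distances, 41 of 49 were within 100 bp of a distance to an annotated start. Python 3.11.15, pandas 2.3.3 and pysam 0.24.0 were used, and the functions were tested on simulated data. No statistical test was run. All 35 genes were named, with other pathway genes of 3 or more regions or a region over the 95th percentile of width, of which 1 is not reported here. The genes, lists and motifs were chosen with earlier results of these data known.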

Additional observations from a re-analysis of the deposited data

How the results depend on the processing

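Of 19 recomputed values, 15 stayed within 1.5 times the reported count or within the spread set for them, and 4 moved. Dropping the regions narrower than the overall median (1123 bp) left 13 genes with a region in place of 20 and 20 regions in place of 49. The genes lost were Atp2a2, Cacna1c, Cacna1g, Casq2, Kcnd2, Kcnd3 and Kcnq1, and fewer regions enter this count by construction. A region within 50 kb, in place of 100 kb, was found for 8 of the 15 genes without an assigned region in place of 13. Motif matches numbered 71 in the central 300 bp and 201 in whole regions, which are longer. Assignment to the nearest coding start gave 21 genes and 45 regions, with Cacna1s and Pln gained and Cacna1c lost, and overlap with the gene span gave 19 genes and 38 regions, with Cacna1d gained and Atp2a3 and Gja1 lost. No paired analysis was possible because the list joins the 3 wild-type libraries and no value carries a replicate number, and for the same reason no library could be left out. The list has no depth, so a gene without a region may lie below what these libraries could show.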
